A study of Homo sapiens with 2 samples.

Results

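The genes described here encode the machinery that shows peptides on major histocompatibility complex (MHC) class I molecules. They are the heavy chains HLA-B, HLA-C and HLA-E, the light chain beta-2-microglobulin (B2M), the peptide transporter subunits TAP1 and TAP2, the loading factor tapasin (TAPBP), the immunoproteasome subunit PSMB8 and the transactivator NLRC5. They were taken by name from the class I pathway and make up 9 of the 33538 genes counted in each library. The cells came from CHLA9 and TC71, both established lines of Ewing sarcoma, a tumour of bone and soft tissue driven by a fusion of EWSR1 with an ETS gene. CHLA9 was kept in IMDM with 20% fetal bovine serum and a supplement of insulin, transferrin and selenium, and TC71 in RPMI with 10% fetal bovine serum. Each line gave 1 droplet library of transcript 3' ends, and CHLA9 was run on a further sequencer, so that line, medium, serum and sequencing cannot be told apart. Each line stands for 1 tumour grown in culture, without immune cells around it.

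A barcode was kept as a cell with 5000 or more unique molecular identifiers (UMIs), 2000 or more genes and no more than 15% of its UMIs from mitochondrial genes. This left 4524 of 5077 barcodes of CHLA9 (89.1%), with 174975302 UMIs and a median of 34656 per cell, and 1729 of 8468 barcodes of TC71 (20.4%), with 58355173 UMIs and a median of 33370. The libraries shared 16 barcodes, of which 3 were among the kept cells of both. Levels are given as CPM, the UMIs of a gene per 1000000 UMIs summed over the kept cells of a line, with exact 95% Poisson intervals, and ratios with exact conditional binomial intervals. With 1 library a line there was no test between the lines, and all intervals cover counting error only.

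Of 9 Ewing sarcoma markers, 8 reached 10 CPM in at least 1 line, among them CD99 at 1141 CPM in CHLA9 and 402 in TC71 and NR0B1 at 48.1 and 122. The 9 summed to 4387 and 2535 CPM, with CCND1 the most abundant. Markers of immune cells, in which class I genes are usually high, were near 0. The 8 of them summed to 0.474 CPM in CHLA9 and 0.223 in TC71, the most abundant was CD14, and CD3D, CD3E and MS4A1 had 0 UMIs in both lines. The 3 markers each of endothelial, epithelial and erythroid cells summed to 0.223, 0.0514 and 0.503 CPM in CHLA9 and to 0.0685, 1.27 and 0.0514 CPM in TC71, led by CDH5, EPCAM and HBA1, and VWF, KRT5 and HBB had 0 UMIs in both. The 3 fibroblast markers summed to 18.4 CPM in CHLA9 and 4.18 in TC71, most of it DCN.

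In most nucleated cells the proteasome cuts proteins into peptides, the TAP transporter carries them into the endoplasmic reticulum, and tapasin helps to load them on a heavy chain paired with B2M. The loaded molecule travels to the cell surface, where CD8+ T cells read it, while natural killer cells are held back by class I through receptors of their own. Interferon gamma raises most of these genes, NLRC5 acts on their promoters, and low class I at the cell surface has been described in a share of Ewing sarcomas.

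Each of the 9 genes had a higher level in TC71 than in CHLA9, but by very different amounts. HLA-B, TAP1 and TAP2 were near absent in CHLA9 and found in TC71, TAP1 and TAP2 at low levels. HLA-E, B2M and TAPBP were well covered in both lines and just over 2-fold higher in TC71, and HLA-C differed least. PSMB8 was not detected in CHLA9 and rare in TC71, and NLRC5 was too rare in both for a difference to be detectable.

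**Figure D1:**
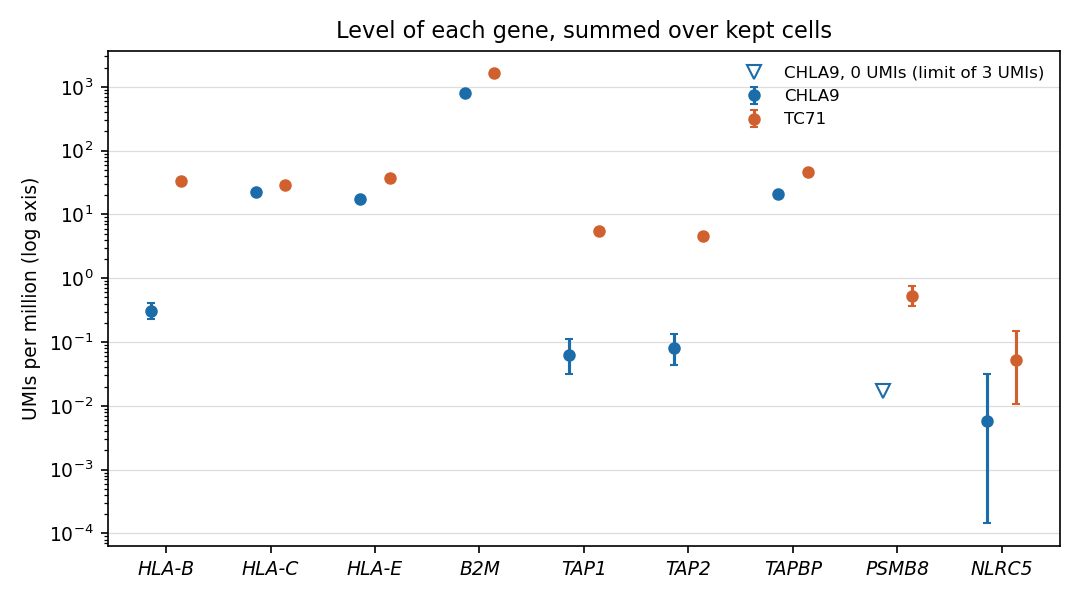
Level of each gene in CPM on a log axis, summed over the kept cells of CHLA9 (blue, 4524 cells) and TC71 (orange, 1729 cells), with 95% Poisson intervals that cover counting error only. The open triangle marks PSMB8 in CHLA9, with 0 UMIs, drawn at the level of 3 UMIs (0.0171 CPM). HLA-B, TAP1 and TAP2 lie far apart between the lines, while HLA-C lies close together.

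By a 2-fold rule, 4 of the 5 members with at least 10 CPM in 1 line (HLA-B, HLA-E, B2M and TAPBP, but not HLA-C) were higher in TC71 and 0 were lower. Of all 9258 genes at this level, 8.80% were 2-fold higher in TC71 and 16.3% were 2-fold lower. HLA-B reached 10 CPM through TC71 alone, and at 4-fold and 16-fold it was the only 1 of the 5 that was higher, against 3.80% and 2.11% of these genes. With TAP1 and TAP2, 7 members reached 1 CPM. Of these, 6 were 2-fold higher in TC71, against 13.9% of 13552 genes (19.8% were lower), and 3 (HLA-B, TAP1 and TAP2) were 4-fold and 16-fold higher, against 7.93% and 4.60%. These 3 reached 1 CPM through TC71 alone, so such a limit favours a difference in this direction. PSMB8 and NLRC5 lay under 1 CPM in both lines. Counted over all 9 members, 8 had a value past 2-fold, and for 7 the whole interval lay past 2-fold, NLRC5 being the exception. The median log2 difference over the 9 members (TC71 minus CHLA9) was 3.17, which is the value of NLRC5 and rests on 4 UMIs. Over the 4 members with 10 CPM in both lines, a subset chosen after seeing the data, the median was 1.06. Over all 9258 genes, a wider set that needed 10 CPM in only 1 line, it was -0.21. Relative to that general shift the members stood 0.21 further towards TC71 than the differences below state.

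**Figure D2:**
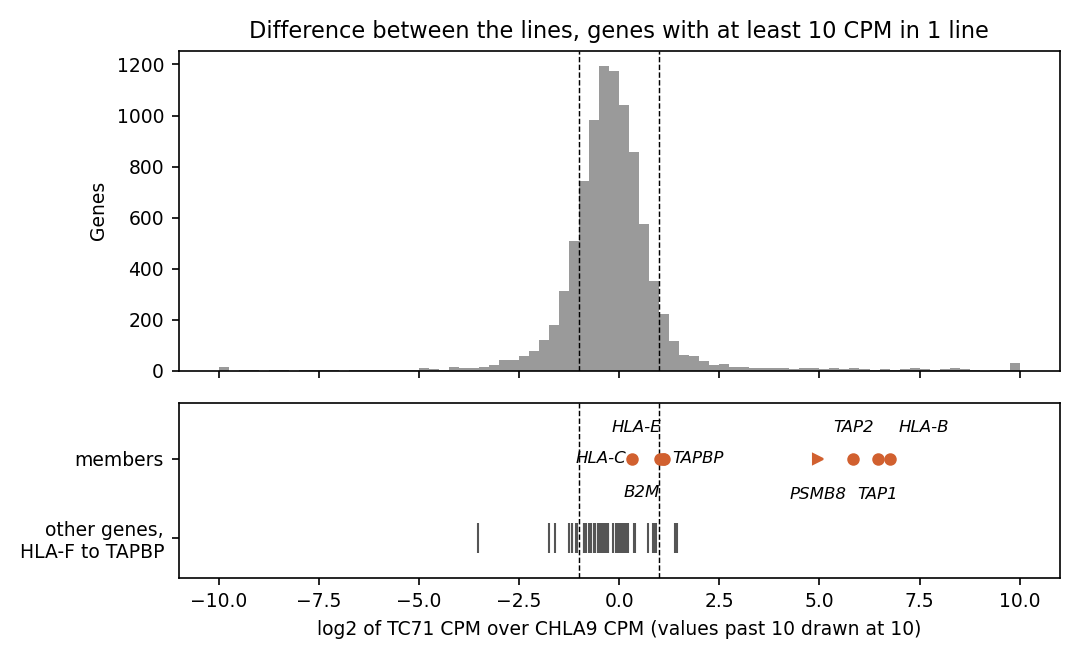
Upper panel, number of genes by log2 of TC71 CPM over CHLA9 CPM, for the 9258 genes with at least 10 CPM in 1 line. Lower panel, the same scale for 8 of the members (orange; the arrowhead of PSMB8 is its value over a floor of 3 UMIs in CHLA9, and NLRC5, with 4 UMIs, is left out) and for 60 other genes of the MHC region (grey ticks); dashed lines mark 2-fold. Most of these other genes lie left of 0, and the members lie right of it.

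The stretches upstream of these genes show what they share in sequence. RefSeq promoter entries on GRCh38.p14 were held for 7 of the 9 members, 9 entries in all since TAP1 and PSMB8 have a second one each, and the entries of HLA-E and NLRC5 were missing. The starts of transcription are those of RefSeq, while the gene bounds given below are from GENCODE. The stretches of HLA-B, HLA-C, B2M, TAP1, TAPBP and the second entry of PSMB8 overlap these bounds. In the 250 bases before the start of transcription, the core of the interferon regulatory factor site, searched as AANNGAAA on both strands, was found in 6 of the 9 entries and in 20.3% of all 35116 promoters of this length. The entries without it were both of PSMB8 and the second of TAP1. In 4 of the 6 it occurred as a pair of matches that overlap by 2 bases. The capitals below mark these matches, for the 6 entries that hold one.
HLA-B (chr6:31357180-31357429, minus strand): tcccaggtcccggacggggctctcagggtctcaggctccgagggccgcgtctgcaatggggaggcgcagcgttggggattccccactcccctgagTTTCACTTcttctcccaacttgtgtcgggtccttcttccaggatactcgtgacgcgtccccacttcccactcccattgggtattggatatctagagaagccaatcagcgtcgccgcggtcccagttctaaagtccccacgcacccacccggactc
HLA-C (chr6:31272093-31272342, minus strand): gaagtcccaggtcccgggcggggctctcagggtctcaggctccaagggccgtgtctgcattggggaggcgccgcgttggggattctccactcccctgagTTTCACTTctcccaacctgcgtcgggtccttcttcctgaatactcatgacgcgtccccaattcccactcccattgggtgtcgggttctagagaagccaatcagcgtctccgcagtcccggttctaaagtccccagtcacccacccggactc
B2M (chr15:44711267-44711516, plus strand): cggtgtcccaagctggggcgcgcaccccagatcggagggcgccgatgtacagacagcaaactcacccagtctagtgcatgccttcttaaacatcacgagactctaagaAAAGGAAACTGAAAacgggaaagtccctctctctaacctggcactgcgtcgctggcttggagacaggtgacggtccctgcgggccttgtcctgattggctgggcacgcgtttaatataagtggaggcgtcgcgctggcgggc
TAP1 (chr6:32853705-32853954, minus strand): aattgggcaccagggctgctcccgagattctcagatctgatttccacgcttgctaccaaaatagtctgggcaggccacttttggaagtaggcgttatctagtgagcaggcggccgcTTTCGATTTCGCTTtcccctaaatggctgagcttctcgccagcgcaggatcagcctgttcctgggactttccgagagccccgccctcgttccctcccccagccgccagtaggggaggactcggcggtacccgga
TAP2 (chr6:32838740-32838989, minus strand): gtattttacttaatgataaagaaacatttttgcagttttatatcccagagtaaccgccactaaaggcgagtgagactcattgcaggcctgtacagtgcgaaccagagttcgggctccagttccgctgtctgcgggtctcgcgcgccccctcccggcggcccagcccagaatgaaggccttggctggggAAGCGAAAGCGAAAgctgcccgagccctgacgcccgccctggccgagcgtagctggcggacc
TAPBP (chr6:33314079-33314328, minus strand): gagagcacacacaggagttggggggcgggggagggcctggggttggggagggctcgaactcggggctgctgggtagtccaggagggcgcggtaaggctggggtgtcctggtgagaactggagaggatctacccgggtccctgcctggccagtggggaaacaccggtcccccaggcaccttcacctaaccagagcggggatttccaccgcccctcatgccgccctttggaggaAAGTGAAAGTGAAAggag
A kappa B site, searched on both strands as GGG, 2 bases of any kind, TT, 1 base of any kind and CC, was found in HLA-B, B2M, TAP1 and TAPBP (4 of 9 entries, against 5.07% of all promoters), a CCAAT box in HLA-B, HLA-C, B2M and TAP1 (4 of 9, against 32.0%) and the letters TGACG of the cyclic AMP response element in HLA-B, HLA-C, B2M, TAP2 and PSMB8 (5 of 9, against 21.2%), each in the first entry, and none of these overlapped an interferon regulatory factor match. The stretches of HLA-B and HLA-C were the same at 226 of 254 aligned positions (89.0%), while the level of HLA-B differed between the lines by a far larger factor than that of HLA-C. A match is a run of letters in the reference, and binding at it was not measured.

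Among the 3 heavy chains of the set, HLA-B (ENSG00000234745, chr6:31353872-31367067, minus strand) differed most. This chain presents peptides to CD8+ T cells. It had 54 UMIs in CHLA9, or 0.309 CPM (0.232 to 0.403), and 1966 UMIs in TC71, or 33.7 CPM (32.2 to 35.2), which is 109-fold higher in TC71 (83.3 to 146). A UMI of HLA-B was found in 0.906% of CHLA9 cells (95% Clopper-Pearson interval 0.651 to 1.23) and in 58.0% of TC71 cells (55.6 to 60.3). With every cell thinned to 5000 UMIs the shares were 0.155% and 16%. Thus almost every CHLA9 cell was without an HLA-B UMI at either depth, and with all UMIs more than 1 in 2 of the TC71 cells held one.

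HLA-C (ENSG00000204525, chr6:31268749-31272130, minus strand), the neighbouring heavy chain and also a ligand of inhibitory receptors on natural killer cells, was the member closest between the lines. Its level was 22.9 CPM in CHLA9 (22.2 to 23.6) and 28.6 in TC71 (27.3 to 30.0), 1.25-fold higher in TC71 (1.18 to 1.32). The share of cells with a UMI was 52.2% in CHLA9 and 58.5% in TC71, and 10.3% and 13.2% after thinning. HLA-C was thus counted in CHLA9 at a level near that in TC71, unlike HLA-B. How many UMIs in a barcode came from transcripts outside its cell was not estimated, for any member.

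HLA-E (ENSG00000204592, chr6:30489509-30494194, plus strand) presents mainly signal peptides of other class I chains to receptors of natural killer cells. It was found at 17.7 CPM in CHLA9 (17.1 to 18.3) and 37.7 in TC71 (36.1 to 39.3), 2.13-fold higher in TC71 (2.02 to 2.25). Cells with a UMI made up 46.0% of CHLA9 and 67.4% of TC71. Taking the 3 heavy chains as a group, 72.4% of CHLA9 cells (71.1 to 73.7) and 91.7% of TC71 cells (90.3 to 93.0) held at least 1 UMI of any of them, and 0.553% and 27.1% held a UMI of each. After thinning, the shares with any of them were 17.2% and 38.7%.

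Class I heavy chains are close in sequence and vary between people, so their counts depend on how well each line's own alleles match the reference. In the last 500 bases of the reference transcript, each of HLA-B, HLA-C and HLA-E had 0 of 411 windows of 90 bases that occurred in a transcript of another gene. The alleles of the lines were not determined here, and their part in the level of HLA-B was not tested.

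The light chain B2M (ENSG00000166710, chr15:44711358-44718851, plus strand), which every class I heavy chain needs to reach the surface, was found in nearly every cell. It stood at 800 CPM in CHLA9 (796 to 804), from 139983 UMIs, and at 1625 in TC71 (1615 to 1635), from 94820 UMIs, 2.03-fold higher in TC71 (2.01 to 2.05). A UMI was found in 4523 of 4524 CHLA9 cells and in 1728 of 1729 TC71 cells. The median cell held 7.77 B2M UMIs per 10000 in CHLA9, with 90% of the cells between 4.21 and 13.5, and 15.8 in TC71, with 90% between 9.61 and 25.9. The ranges of the lines thus overlapped, and the median of TC71 lay above the upper end of the CHLA9 range. The coefficient of variation between cells was 36.1% in CHLA9 and 31.5% in TC71, of which 30.5% and 27.8% remained once the counting variance was taken off.

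The subunits of the peptide transporter were almost missing in CHLA9. TAP1 (ENSG00000168394, chr6:32845209-32853816, minus strand) had 11 UMIs in CHLA9, or 0.0629 CPM (0.0314 to 0.112), and 321 in TC71, or 5.50 CPM (4.92 to 6.14), 87.5-fold higher in TC71 (48.2 to 177). TAP2 (ENSG00000204267, chr6:32821833-32838739, minus strand), its partner in the heterodimer, had 14 UMIs in CHLA9, or 0.080 CPM (0.0437 to 0.134), and 269 in TC71, or 4.61 CPM (4.08 to 5.19), 57.6-fold higher in TC71 (33.7 to 107). Both transporter genes thus followed HLA-B in the size of their difference. At least 1 UMI of TAP1 or TAP2 was found in 24 CHLA9 cells, or 0.531% (0.340 to 0.788), and in 472 TC71 cells, or 27.3% (25.2 to 29.5).

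TAPBP (ENSG00000231925, chr6:33299694-33314284, minus strand), which bridges the transporter and the empty heavy chain, followed the other pattern. Its level was 21.0 CPM in CHLA9 (20.4 to 21.7) and 45.6 in TC71 (43.9 to 47.3), 2.17-fold higher in TC71 (2.06 to 2.28), much as for B2M and HLA-E. It was seen in 51.2% of CHLA9 cells and 72.6% of TC71 cells, and in 9.84% and 19.8% after thinning.

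PSMB8 (ENSG00000204264, chr6:32840717-32844679, minus strand) replaces the constitutive subunit PSMB5 in the immunoproteasome, which changes the peptides that are cut. It had 0 UMIs in CHLA9, where 3 UMIs would be 0.0171 CPM, and 31 UMIs in TC71, or 0.531 CPM (0.361 to 0.754). Over a floor of 3 UMIs in the whole of CHLA9 the ratio was 31.0 in favour of TC71, and its exact interval, from the 0 UMIs, began at 23.7. It was found in 0 of 4524 CHLA9 cells and in 29 TC71 cells, or 1.68% (1.13 to 2.40). Even in TC71 it was sparse beside the subunit it replaces, with 0.794 UMIs of PSMB8 for each 1000 of PSMB5, which had 39025 UMIs in TC71 and 96616 in CHLA9. TAP1 and PSMB8 overlap PSMB9 and PSMB8-AS1 on the other strand, NLRC5 overlaps AC023825.2 on the other strand and TAP2 overlaps AL669918.1 on its own strand, and whether the counting used strand is not given in the sources used here.

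NLRC5 (ENSG00000140853, chr16:56989485-57083531, plus strand), the transactivator of class I genes, had 1 UMI in CHLA9 and 3 in TC71. The ratio of 9.0 in favour of TC71 had an interval from 0.722 to 472, so that no difference was detectable at this depth. Transcripts of a regulator can be too few for this assay, and NLRC5 protein was not measured.

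**Figure D3:**
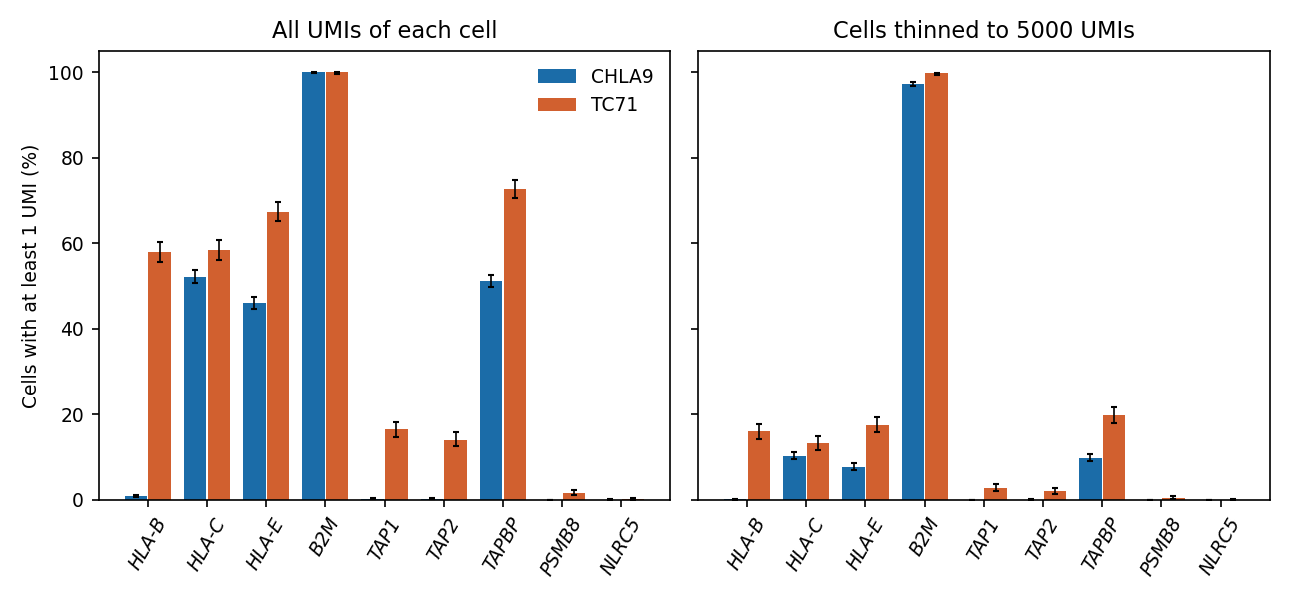
Share of cells with at least 1 UMI of each gene in CHLA9 (blue) and TC71 (orange), with 95% Clopper-Pearson intervals, from all UMIs of each cell (left) and after each cell was thinned to 5000 UMIs (right). B2M is found in nearly all cells of both lines, and HLA-B in 0.906% of CHLA9 cells against 58.0% of TC71 cells.

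Other genes of the pathway, given by list, show which steps go with these members. Of the constitutive catalytic subunits PSMB5, PSMB6 and PSMB7, 3 of 3 were within 2-fold, with a median log2 difference of -0.20. Of 5 genes of the immunoproteasome and its PA28 regulator, 3 reached 10 CPM and were within 2-fold, with PSME3 highest in CHLA9 (88.1 CPM, and 45.4 in TC71) and PSME2 in TC71 (98.8 CPM, and 62.3 in CHLA9). PSMB9 and PSMB10 lay under 10 CPM and are named after their values were seen. PSMB9, whose gene starts beside that of TAP1, had 4 UMIs in CHLA9 and 173 in TC71, 130-fold higher in TC71 (49.7 to 481), and PSMB10 stood at 3.57 and 6.92 CPM. Of 6 genes of peptide trimming and loading, 3 reached 10 CPM and were within 2-fold, led by CALR at 588 and 406 CPM. The other 3, also named after their values were seen, were low, with more UMIs in TC71 for the trimming enzymes ERAP1 (4 and 55) and ERAP2 (2 and 40) and fewer for TAPBPL, a relative of tapasin (337 and 33). Of 6 other class I-like heavy chains only FCGRT, which carries antibodies and also pairs with B2M, reached 10 CPM, at 456 and 443. HLA-F, named after its values were seen, had 2 UMIs in CHLA9 and 172 in TC71, 258-fold higher in TC71 (70.3 to 2146). Of the same list and named in the same way, HLA-G went the other way, with 30 UMIs in CHLA9 and 3 in TC71 (ratio 0.300, 0.0586 to 0.964), as did HFE at 5.84 and 3.34 CPM, while CD1D (0.509 and 2.54 CPM) and MR1 (2.47 and 3.0 CPM) were higher in TC71.

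The upstream regulators gave a mixed picture. Of 12 regulators listed for class I promoters, transcription factors apart from EZH2, 10 reached 10 CPM. Among these 10, 1 was 2-fold higher in TC71 and 4, with EZH2, were 2-fold lower (8.80% and 16.3% of all genes at this level). NFKB1, a subunit of NF-kappa B that reached 10 CPM through TC71 alone, was at 5.31 CPM in CHLA9 and 23.5 in TC71. Under 10 CPM, and named after their values were seen, IRF1 stood at 1.62 and 3.98 CPM and IRF2 at 4.53 and 9.0, 2.46-fold (2.06 to 2.93) and 1.99-fold (1.77 to 2.22) higher in TC71. Lower in TC71 were RFXANK, NFYA and NFYC, which belong to the complexes that bind class I promoters, at 80.7, 33.0 and 79.7 CPM in CHLA9 and 39.8, 9.55 and 32.2 in TC71. EZH2, the methyltransferase of Polycomb and the most abundant gene of this list, was at 442 CPM in CHLA9 and 95.6 in TC71. Of 11 interferon receptor and signalling genes, 8 reached 10 CPM and 1 of them, the receptor chain IFNAR2, was 2-fold higher in TC71 (4.95 and 14.4 CPM, against 8.80% of all genes), with 10 CPM in TC71 alone, while JAK1, the most abundant, stood at 606 and 678. Of the 3 under 10 CPM, only SOCS1 passed 2-fold. Named after its values were seen, it was lower in TC71 (402 and 46 UMIs, ratio 0.343, 0.247 to 0.466). Of 20 interferon-stimulated genes only 5 reached 10 CPM. Among these, IFI6 (1.62 and 10.2 CPM), IFITM2 (20.7 and 75.5) and UBE2L6 (3.11 and 14.8) were 2-fold higher in TC71 (3 of 5, against 8.80% of all genes). IFI6 and UBE2L6 had 10 CPM in TC71 alone. IFITM3, the most abundant, was at 66.9 and 104, and MX1 had 0 UMIs in CHLA9 and 1 in TC71. Of the 13 genes of the list under 10 CPM with 10 or more UMIs, 7 were 2-fold higher in TC71 and 3 were 2-fold lower, against 24.3% and 32.8% of all 9389 such genes, and they are named after their values were seen. Higher were IFIT1 (4 and 486 UMIs), IFIT2 (1 and 131), PSMB9 (4 and 173), IFIT3 (27 and 184), GBP2 (4 and 21), IFI44L (0.852 and 3.94 CPM) and SP100 (0.223 and 0.685 CPM), and lower were BST2 (5.36 and 1.08 CPM), IFI35 (6.27 and 1.54 CPM) and OAS1 (1.84 and 0.428 CPM). The part of any of these in the levels of the members was not tested.

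Class II genes were low in both lines. All 10 lay under 10 CPM, led by HLA-DMB at 1.60 CPM in CHLA9 and 4.20 in TC71 and found in 5.44% and 12.8% of cells, and HLA-DQA1 had 0 UMIs in both. HLA-DPA1, HLA-DRB1 and HLA-DQB1 had 0 UMIs in CHLA9 and 89, 2 and 1 in TC71, and HLA-DPB1, named after its values were seen, had 1 and 57. Of 11 ligands of receptors on natural killer and T cells, 5 reached 10 CPM. MICA, a stress ligand encoded next to HLA-B, was at 4.71 CPM in CHLA9 and 12.9 in TC71, and CD47, the most abundant in TC71, at 16.5 and 41.8, both 2-fold higher in TC71 (2 of 5, against 8.80% of all genes), MICA with 10 CPM in TC71 alone. CD276 was the most abundant in CHLA9, at 24.5 CPM, with 12.3 in TC71. CD274 had 0 UMIs in CHLA9 and 8 in TC71, and PDCD1LG2 had 2 and 0. ULBP1 (8 and 173 UMIs, 64.8-fold, 32.2 to 153) and ULBP2 (18 and 101 UMIs, 16.8-fold, 10.1 to 29.5), also stress ligands and named after their values were seen, were higher in TC71.

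The surroundings of the members on the chromosome were examined next. Between HLA-F and TAPBP (chr6:29722775-33298942 on GRCh38) lie 177 other genes of the table, of which 60 reached 10 CPM in 1 line. Of these 60, 2 were 2-fold higher in TC71 (MICA and HSPA1B, both with 10 CPM in TC71 alone) and 9 were 2-fold lower, or 3.33% and 15%, against 8.80% and 16.3% of all genes at this level, and their median log2 difference was -0.41, against -0.21. RPS18 (4080 and 6664 CPM), CLIC1 (228 and 295) and TUBB (2603 and 1581) are examples within 2-fold. With a limit of 1 CPM, 12 of 88 were 2-fold higher in TC71 and 11 were 2-fold lower (13.6% and 12.5%, against 13.9% and 19.8% of all genes), and 4 were 16-fold higher (4.55%, against 4.60%), among them PSMB9, HLA-F and HLA-DPA1, which reached 1 CPM through TC71 alone. Higher levels in TC71 were thus no more frequent among these other genes of the stretch, the members left out, than among all genes. Within 500 kb of B2M, 1 of 8 genes with 10 CPM was 2-fold higher in TC71 and the median was 0.24. Within 500 kb of NLRC5, however, 6 of 10 were 2-fold higher, with a median of 1.06. Among them MT2A, MT1X and HERPUD1 reached 10 CPM through TC71 alone.

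The co-variation of the heavy chains with B2M was then examined within each line. Across cells thinned to 5000 UMIs, Spearman's rho with B2M was 0.00847 for HLA-B, 0.0326 for HLA-C and 0.0172 for HLA-E in the 4524 cells of CHLA9, and 0.0718, 0.00717 and -0.00456 in the 1729 cells of TC71. These values are weak and, in counts this sparse, are not read as co-variation. The median of the 3 was 0.0172 in CHLA9 and 0.00717 in TC71, and 0.0112 and 0.0575 with another seed at the same depth. In TC71 it was higher at greater depth, 0.113 with cells thinned to 10000 UMIs and 0.148 with all UMIs as UMIs per 10000, where HLA-B gave 0.165, HLA-C 0.148 and HLA-E -0.0224. In CHLA9 it was 0.0219 with all UMIs. Of the pairs of members that could be computed, 0 of 15 in CHLA9 and 0 of 36 in TC71 had a rho past 0.1 in either direction at 5000 UMIs, and the highest in TC71 was 0.0790.

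To use all UMIs, the cells of each line were ranked by their B2M UMIs per UMI and put into quintiles, and the UMIs of each quintile were summed. In TC71, B2M ran from 1063 CPM in the lowest quintile to 2391 in the highest. Over the same quintiles HLA-B stood at 24.3, 28.9, 34.8, 39.9 and 42.3 CPM, 1.74-fold higher in the highest than in the lowest (1.49 to 2.02). HLA-C stood at 22.6, 25.7, 28.6, 31.9 and 35.7 CPM, 1.58-fold higher (1.35 to 1.86). Both thus increased at every step. At least 1.25-fold higher were 4.18% of the 8152 other genes with 10 CPM in TC71, among which HLA-B ranked 18 and HLA-C 40, and the median log2 ratio of these genes was -0.09. HLA-E did not increase, with 39.7 CPM in the lowest and 32.9 in the highest quintile, a ratio of 0.830 (0.719 to 0.956). TAPBP went from 41.6 to 50.1 CPM, 1.21-fold higher (1.06 to 1.37), and TAP1 from 3.36 to 7.35, 2.19-fold higher (1.47 to 3.30) on 40 and 75 UMIs. For TAP2, on 39 and 49 UMIs, the ratio was 1.47 (0.944 to 2.29), with an interval that included 1, and for PSMB8, on 2 and 11 UMIs, it was 6.42 (1.40 to 59.6).

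In CHLA9 the quintiles of B2M ran from 472 to 1249 CPM. HLA-C was at 20.1 CPM in the lowest and 27.2 in the highest, 1.36-fold higher (1.23 to 1.5), rank 45 of 8620 genes, of which 1.57% were at least 1.25-fold higher. HLA-E (16.8 and 18.6 CPM, 1.10-fold, 0.983 to 1.24) and TAPBP (20.0 and 21.9 CPM, 1.10-fold, 0.985 to 1.22) had intervals that included 1. HLA-B had 8 UMIs in the lowest and 18 in the highest quintile, a ratio of 2.63 (1.09 to 7.0), and 9 of the 18 came from 1 cell. Without this cell, left out after seeing the data, the ratio was 1.32 (0.452 to 3.93), so that no difference was detectable. Cells with more B2M were shallower, with a median of 36413 UMIs in the lowest and 31495 in the highest quintile of CHLA9 and of 34618 and 29607.5 in TC71. With quintiles taken within quartiles of depth, a setting chosen after seeing the data, the ratio in TC71 was 1.72 for HLA-B, 1.5 for HLA-C and 0.895 for HLA-E (0.780 to 1.03), whose interval then included 1. In CHLA9 it was 1.31 for HLA-C, 1.12 for HLA-E (1.004 to 1.26) and 1.13 for TAPBP (1.02 to 1.26), whose intervals then lay above 1. The ratios themselves changed little, and those of HLA-E, and of TAPBP in CHLA9, were too close to 1 for the intervals to settle.

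**Figure D4:**
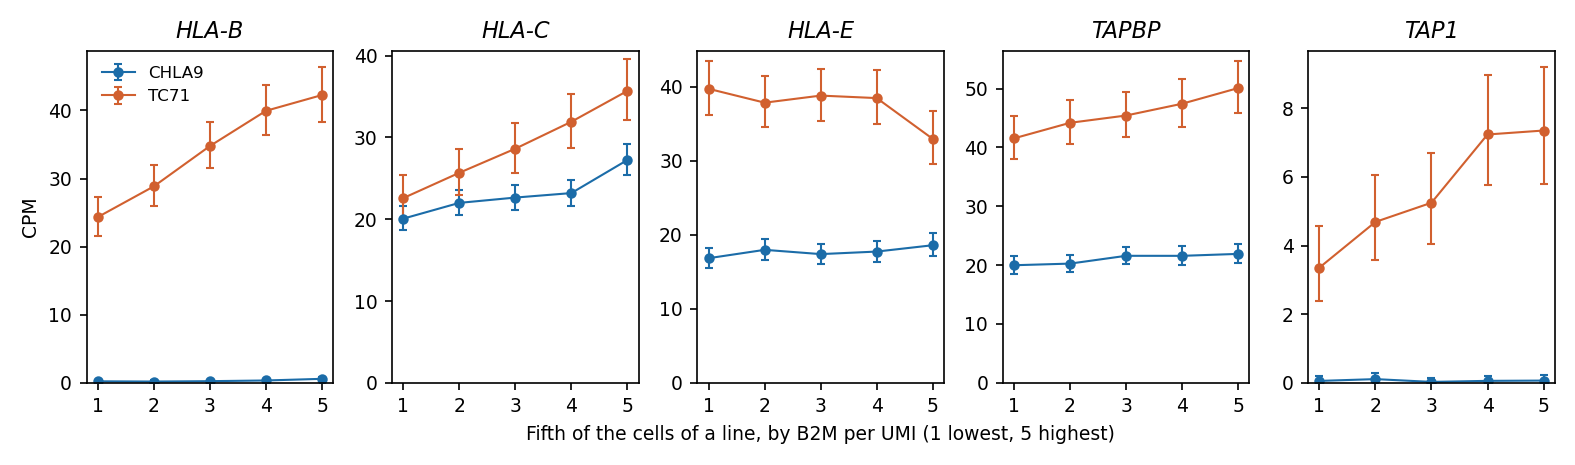
CPM of 5 members in quintiles of the cells of CHLA9 (blue, 905 cells each in the lowest and highest) and TC71 (orange, 346 each), ranked by B2M per UMI from lowest to highest, with 95% Poisson intervals; each panel has its own axis from 0. In TC71, HLA-B goes from 24.3 to 42.3 CPM and HLA-C from 22.6 to 35.7, while HLA-E goes from 39.7 to 32.9.

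The genes most like B2M across thinned cells differed between the lines but had a pair in common. In CHLA9 they were, from a rho of 0.0913, RPS7, CD99, UBB, ITM2A, RPL11, FCGRT, RPL10, GRP, PTMA and CALCB, and of 6378 genes 0 passed 0.1 and 9 lay under -0.1, with MKI67 lowest at -0.139. In TC71 they were, from a rho of 0.211, FTH1, QPCT, NDUFA4, TUBA1B, SERF2, RPS27A, MT-CO2, CD99, RPS7 and UTS2, and of 5728 genes 21 passed 0.1 and 10 lay under -0.1, with NCL lowest at -0.166. With the summed UMIs of HLA-B, HLA-C and HLA-E, the highest values were 0.0691 in CHLA9 (CENPF, with NUSAP1, TPX2, CCNA2, RHNO1, UPF3B, SEPT7, TXLNG and KDM4A among the next) and 0.0936 in TC71 (PSMA3, followed by NCBP3, TNIP1, BLOC1S4, LMNA, NUP85, INTS6, NOM1, PHF13 and SUMF2). These values are low throughout and describe single libraries.

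The few CHLA9 cells with HLA-B were set beside the rest. The 41 cells with a UMI held HLA-C at 60.9 CPM (50.2 to 73.3), against 22.5 (21.8 to 23.2) in the 4483 cells without one, and B2M at 890 (847 to 934) against 799 (795 to 803). Of the 54 UMIs, 9 came from the cell left out above, which also held 17 of HLA-C. Without this cell HLA-C stood at 53.5 CPM (43.3 to 65.4) and HLA-B at 0.257 CPM over the line, 131-fold higher in TC71. In TC71, HLA-C was at 31.3 CPM in cells with an HLA-B UMI and 24.5 in cells without, and TAPBP at 49.9 and 38.9. Cells with a UMI were deeper, with medians of 41587 against 34565 UMIs in CHLA9 and 34157 against 32151 in TC71. Whether some HLA-B counts of CHLA9 are reads of HLA-C was not tested.

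Finally, the members were compared between phases of the cell cycle, scored within each library. G1 held 1031 CHLA9 cells and 428 TC71 cells, and G2M 1839 and 773. B2M was higher in G1 in both lines, with 893 CPM in G1 and 739 in G2M of CHLA9, a log2 ratio of 0.27 (0.25 to 0.29), and 1721 and 1574 CPM in TC71, a log2 ratio of 0.13 (0.11 to 0.15). The medians over all genes with 10 CPM in the line were -0.03 in CHLA9 and -0.10 in TC71. G1 cells were shallower than G2M cells, with medians of 29324 against 40758 UMIs in CHLA9 and 30361.5 against 36121 in TC71. From the lowest to the highest quartile of depth, B2M went from 890 to 757 CPM in CHLA9 and from 1783 to 1501 in TC71. The part of depth in the phase ratios was not tested. HLA-C and HLA-E had intervals that included 0 in both lines, and so did HLA-B in TC71. TAP2, under 10 CPM, had a log2 ratio of -0.52 (-1.0 to -0.05) in TC71, on 51 UMIs in G1 and 156 in G2M. TAPBP was higher in G1 in CHLA9 (22.8 and 20.6 CPM) and lower in G1 in TC71 (42.6 and 49.1 CPM). The median log2 ratio over the members with 10 CPM in the line was 0.13 in CHLA9 (4 members) and -0.06 in TC71 (5 members). None of these members reached 1.25-fold in either direction, while 5.44% of 8621 genes were at least 1.25-fold higher and 13.6% lower in G1 of CHLA9, and 2.24% and 19.7% of 8153 genes in TC71.

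**Figure D5:**
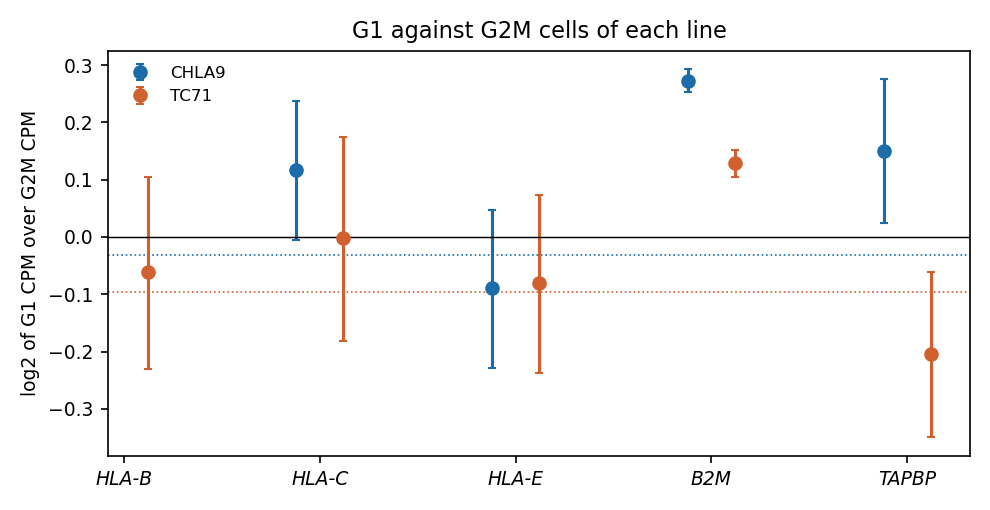
log2 ratio of the CPM in G1 cells over that in G2M cells of CHLA9 (blue) and TC71 (orange), for members with at least 10 CPM in the line, with 95% intervals that cover counting error only; dotted lines are the medians over all genes of each line. B2M lies above 0 in both lines, and TAPBP lies above 0 in CHLA9 and below it in TC71.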

How the data were processed

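The deposited values are counts of UMIs, not normalized, which the authors obtained by aligning to hg38 in Cell Ranger 3.1.0, in 1 matrix for each line. The members and lists were chosen with earlier results of these data known. Of CHLA9 barcodes, 277 had under 5000 UMIs, 95 of the others under 2000 genes and 181 of the rest over 15% mitochondrial UMIs, and of TC71 barcodes 5869, 269 and 601. Doublets were kept in the results, since Scrublet (scanpy 1.11.5) called 274 cells of CHLA9 (6.06%) and 12 of TC71 (0.694%), and an alternative left out the 8% of cells with the highest score. UMIs were summed over kept cells. Shares and Spearman's rho were taken after thinning each cell without replacement to 5000 UMIs (numpy 2.4.6, seed 1), which no kept cell fell below, and intervals came from scipy 1.17.1. Phases were scored with Seurat 5.3.0 in R 4.3.3. Genes were named when they were members, passed 2-fold with 10 CPM in 1 line, led a list or had 0 UMIs in it, or were among those with the highest or lowest rho, 10 at each end, among genes found in 10% of thinned cells; others are marked in the text. Beyond its 6 genes, 1 further gene chosen for the list of other heavy chains is not reported here. Gene positions are from GENCODE 44 on GRCh38, matched by identifier for 33113 of 33538 genes, and promoters from the RefSeq table on GRCh38.p14, aligned with Biopython 1.88. Tables were handled with pandas 2.3.3 and drawn with matplotlib 3.10.9. The summing, rho and thinning steps were tested on simulated data. Alternatives covered the cell filters, doublets, scaling, fold, depth, seed, measure of co-variation and phase lists.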

Additional observations from a re-analysis of the deposited data

Results flagged for a closer look

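TAPBP moved in opposite ways between G1 and G2M cells of the lines, with a log2 ratio of G1 over G2M of 0.15 (0.02 to 0.28) in CHLA9 and of -0.20 (-0.35 to -0.06) in TC71. With at most 10% mitochondrial UMIs the ratio was 0.07 in CHLA9 and -0.20 in TC71. The intervals cover counting error within 1 library each, and whether the lines differ in this was not tested.

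Barcodes left out for more than 15% mitochondrial UMIs carried more of several members than the kept cells in TC71. These 601 barcodes had a median of 9230 UMIs and a median share of mitochondrial UMIs of 42.5%. In them HLA-B stood at 64.5 CPM (33.7 in kept cells), HLA-E at 63.1 (37.7), TAP2 at 10.0 (4.61) and TAPBP at 82.7 (45.6). These levels were flagged as a signal in data that the comparisons leave out, 1.5-fold or more above the kept cells over the whole counting interval. With mitochondrial UMIs left out of the totals, HLA-B stood at 101 CPM (37.1 in kept cells), HLA-E at 99.2 (41.5), TAP2 at 15.8 (5.07) and TAPBP at 130 (50.2). B2M went opposite ways in such barcodes. Its log2 ratio over the kept cells was -1.20 (-1.31 to -1.10) in the 181 barcodes of CHLA9 and 0.46 (0.44 to 0.49) in TC71. With mitochondrial UMIs left out of the totals, the ratio was -0.73 in CHLA9 and 0.98 in TC71. This difference between the lines was not tested either.

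The barcodes left out for under 2000 genes, 95 in CHLA9 and 269 in TC71, were flagged in the same ways. In TC71, HLA-B stood at 70.9 CPM and TAP1 at 15.9 (5.50 in kept cells). Set over kept cells, HLA-C had a log2 ratio of -2.15 in CHLA9 (on 3 UMIs) and 0.84 in TC71. HLA-E had -3.36 (on 1 UMI) and 0.80, and B2M -3.28 (on 48 UMIs) and 0.37. With mitochondrial UMIs left out of the totals, HLA-B in TC71 stood at 161 CPM (37.1 in kept cells) and TAP1 at 36.1 (6.05). The ratios were then -0.87 and 1.88 for HLA-C, -2.08 and 1.84 for HLA-E and -1.99 and 1.41 for B2M. Whether the lines differ in this was not tested. The median share of mitochondrial UMIs in these barcodes was 60.6% in CHLA9 and 55.7% in TC71.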

How the results depend on the processing

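Each member stayed higher in TC71 under each of the 8 planned settings of cells, doublets and scaling, and 8 of the 9 were past 2-fold under all of these but the limit of 10% mitochondrial UMIs, where the count was 7 and NLRC5 had a log2 difference of 0.47. The log2 difference ranged from 6.56 to 6.98 for HLA-B, from 0.29 to 0.53 for HLA-C and from 1.01 to 1.23 for B2M. The median over the 9, which is mostly the value of NLRC5, ran from 1.09 to 4.16. At a fold of 4 the count was 5, with NLRC5 among them, since HLA-E, B2M and TAPBP lie just over 2-fold. Without the 2 CHLA9 cells that held more UMIs of genes typical of TC71 than of CHLA9, a setting chosen after seeing the data, the log2 difference of HLA-B was 7.06. The median rho of the heavy chains with B2M in TC71 was 0.11 at 10000 UMIs and 0.15 without thinning, and the cause was not tested; with another seed it was 0.0575, and in CHLA9 it stayed within 0.1 under each of 9 settings. Without thinning, more cells held a UMI than at the main thinning depth, for each member in both lines but PSMB8 in CHLA9. PSMB8 stayed at 0 in CHLA9. At 10000 UMIs the share of NLRC5 was 0 in both lines, against 0.0578% of TC71 cells at the main thinning depth. The median phase ratio ranged from 0.10 to 0.15 in CHLA9 and from -0.05 to -0.01 in TC71 under 4 alternatives, with its sign kept. The ratio of TAPBP in CHLA9 was 0.07 with at most 10% mitochondrial UMIs. That of HLA-C in TC71 ranged from -0.03 to 0.11 under the same alternatives, so its sign was not kept. With phases scored on genes in at least 10 cells, G1 held 226 TC71 cells in place of 428, and 1015 CHLA9 cells in place of 1031. Between B2M quintiles, HLA-E had a ratio of 0.878 (0.763 to 1.01) in TC71 and 1.17 (1.04 to 1.31) in CHLA9 with quintiles taken within phases, and of 0.837 (0.723 to 0.967) and 1.08 (0.964 to 1.22) without mitochondrial and ribosomal protein genes, where TAPBP in CHLA9 had 1.18 (1.06 to 1.32). Both settings were chosen after seeing the data. No paired analysis was possible because there is a single library of each line and nothing was tested. Depth limits NLRC5 in both lines and HLA-B, TAP1, TAP2 and PSMB8 in CHLA9.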

Other observations

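TC71 cells were also grouped by their UMIs of IFIT1, IFIT2, IFIT3, IFI6 and IFI44L, a grouping chosen after seeing the data. In the 827 cells without such a UMI and the 364 cells with 2 or more, HLA-B was at 33.2 CPM (31.0 to 35.5) and 34.5 (31.5 to 37.7). B2M was at 1645 (1629 to 1661) and 1596 (1575 to 1617) and PSMB8 at 0.786 (20 UMIs) and 0.208 (3 UMIs). HLA-C stood at 27.6 and 30.1 CPM, HLA-E at 36.3 and 39.6, TAP1 at 5.26 and 5.75, TAP2 at 4.09 and 5.27 and TAPBP at 44.2 and 49.3. Cells with 2 or more were deeper, with medians of 38919.5 against 31586 UMIs in TC71 and 47194.5 against 34351.5 in CHLA9. Over quartiles of depth in TC71, B2M stood at 1783 CPM in the lowest and 1501 in the highest. The part of depth in these levels was not tested. In CHLA9, HLA-B was at 0.263 CPM in the 4118 cells without such a UMI and at 5.06 in the 40 cells with 2 or more, from 11 UMIs, of which 9 came from the cell described next. Without it the other 39 cells held 2 HLA-B UMIs, or 0.948 CPM (0.115 to 3.42). In 1 TC71 cell of 39493 UMIs lay 72 of the 131 IFIT2 UMIs of the line and 45 of IFIT1, with 64 UMIs of B2M, 4 of HLA-E and 1 of HLA-B.

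The CHLA9 cell with 9 HLA-B UMIs held 62500 UMIs in all, of which 0.693% came from the 195 genes at least 16-fold higher in TC71 (median 0.00765% in CHLA9 cells and 0.714% in TC71 cells) and 0.427% from the 98 genes at least 16-fold lower (median 0.708% and 0.00919%). Its barcode was not among the kept TC71 cells.

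TC71 barcodes under 5000 UMIs, 5869 in number with a median of 1170, held the 7 members with 10 or more UMIs there at levels close to those of kept cells, with B2M at 1617 CPM (1591 to 1644) and HLA-B at 31.9 (28.3 to 35.8).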
